A study of Homo sapiens with 15 samples.

Results

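RNA from human AML cell lines was examined here for the genes of nucleotide excision repair (NER) and of RNA polymerase II (Pol II). The group held 44 genes of the 57820 gene IDs in the files. They were taken by symbol, and each matched a single gene ID. There were 22 repair factors, 10 subunits of the transcription and repair factor TFIIH and 12 Pol II subunits. All 44 were above 0 in MOLM-13 and U937, and 42 were above 0 in HL-60, where GTF2H2 and GTF2H4 were listed at 0 in every library.

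NER cuts out bulky DNA lesions, such as those left by ultraviolet light or platinum drugs. Damage is recognised either by XPC and its partners anywhere in the genome or by a Pol II complex that has stalled on a transcribed strand, and both routes call in TFIIH to open the DNA, XPA and RPA to check and protect it, nucleases to cut on either side, and enzymes that refill and seal the gap. TFIIH also opens promoters and carries the kinase that phosphorylates the tail of the largest Pol II subunit, so repair and transcription draw on the same complex.

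The study compared AML lines carrying an shRNA against RNF5 (shRNF5, the knockdown or RNF5-KD cells) with the same lines carrying the vector alone (pLKO), and asked which transcripts depend on RNF5, a ubiquitin ligase of the endoplasmic reticulum. The 15 libraries fell into 6 groups, with 3 pLKO and 2 shRNF5 libraries for MOLM-13, 2 and 2 for U937, and 3 and 3 for HL-60. Both arms of every line were transduced with a lentiviral pLKO vector. The sources used here do not name the hairpin that was sequenced, so each line was treated as carrying a single knockdown construct, and the labels do not say whether libraries came from separate cultures, although the study states in general terms that experiments were repeated independently: p-values measure only the spread between these libraries, which may be technical. The labels place the harvest 7 days after knockdown and the series design 5 days, and the labels name a 3′-end library kit in place of the directional poly(A) kit of the methods.

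Values were normalized read counts, scaled by the authors within each line and rounded to whole numbers, so levels of different lines and of different genes are described and not compared. Each library was estimated to hold between 9700000 and 63800000 counted reads, the highest figure being the MOLM-13 shRNF5 library with replicate number 1. The knockdown was visible in every line. RNF5 read 1223, 1017 and 1020 with pLKO and 76 and 81 with shRNF5 in MOLM-13, 648 and 843 against 46 and 74 in U937, and 506, 689 and 545 against 37, 133 and 43 in HL-60, with no overlap. Of 11 myeloid marker genes, 10 were above 0 in each line, whereas 1 of 9 erythroid and 2 of 7 T and NK cell markers were. HL-60 and MOLM-13 each had 1 of 5 B cell markers above 0, and U937 had 3. Of 7 fibroblast and epithelial markers, MOLM-13 had 2 above 0 and the other lines had 1 each. The counts depend on the genes listed and do not rank levels. With pLKO in U937, the means were 2982.5 for NKG7 (T and NK cells) and 37 and 14129.5 for the myeloid MPO and LYZ. These were bulk samples, in which fewer cells of a type and less RNA per cell cannot be told apart.

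Changes are log2 fold changes of shRNF5 over pLKO on the log2(value + 1) scale, where low values make a change look smaller than it was, with the standard error (SE) of the limma fit. A gene was called changed, written as rose or fell, at a Benjamini-Hochberg adjusted p under 0.1 over all genes tested in the line together with a log2 fold change beyond 0.4 in either direction. Groups are said to overlap unless every shRNF5 library lay on the same side of every pLKO library.

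The calls differed between the 3 lines. In MOLM-13, 0 of 44 genes were called by limma, where 2.04% of all genes tested were (1.03% up and 1.01% down), and 9 of the 44 had an unadjusted p under 0.05 (17% of all genes). In U937, 3 of 44 were called, where 15.7% of all genes were (6.92% up and 8.74% down): UVSSA and ERCC5 fell, and POLR2A, the catalytic subunit of Pol II, rose. In HL-60, 10 of 42 were called, beside 25.9% of all genes (13.6% up and 12.3% down). An unadjusted p under 0.05 was seen for 7 of 44 genes in U937 and 15 of 42 in HL-60, beside 27.1% and 35% of all genes. In HL-60 the repair factors CUL4B, XPA and RPA3, the TFIIH subunits GTF2H5 and MNAT1 and the polymerase subunit POLR2L rose, and DDB1, LIG3, POLR2A and POLR2H fell. POLR2A was the gene called in more than 1 line, and its call was up in U937 and down in HL-60.

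**Figure D1:**
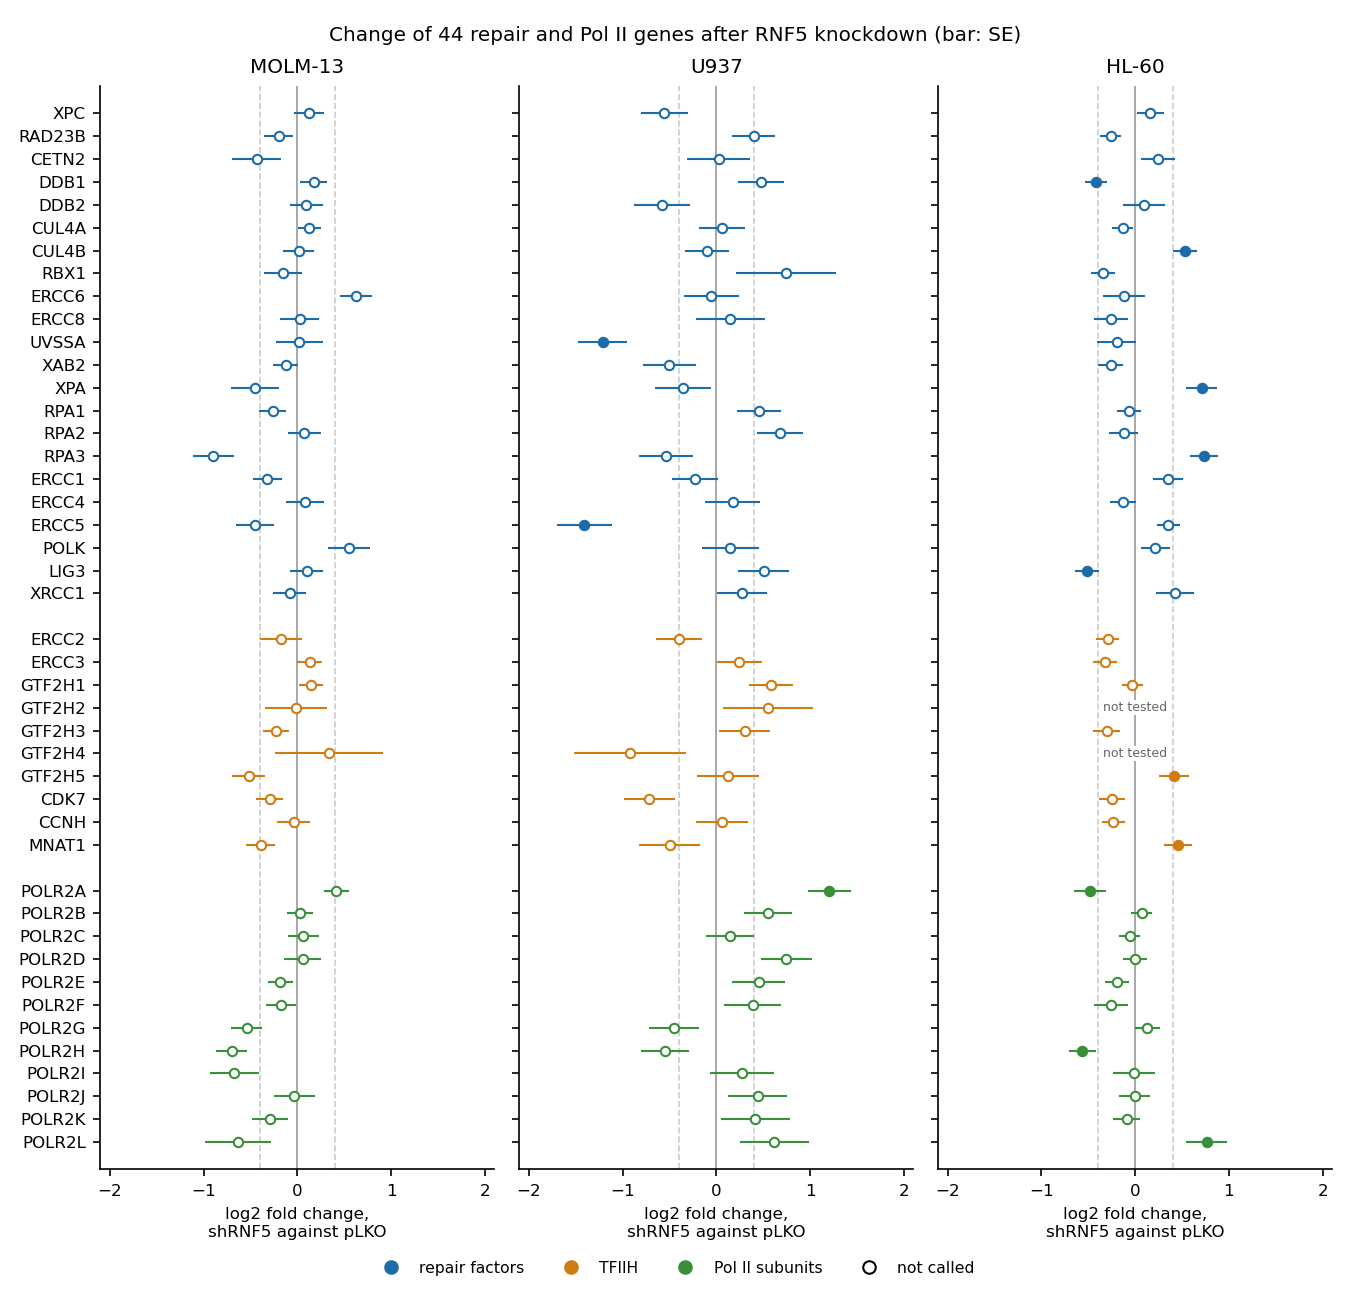
Log2 fold change of shRNF5 over pLKO for the 44 genes (rows, grouped as repair factors, TFIIH and Pol II subunits) in MOLM-13, U937 and HL-60, with bars for the SE and dashed lines at the fold limit of 0.4. Filled points are called genes, of which HL-60 had 10, U937 had 3 and MOLM-13 had 0. GTF2H2 and GTF2H4 were not tested in HL-60.

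A log2 fold change above 0 was found for 19 of 44 genes (MOLM-13), 28 of 44 (U937) and 16 of 42 (HL-60), beside 50.8%, 50.3% and 50.2% of all genes tested. For the 22 repair factors the median log2 fold change was 0.02 (MOLM-13), 0.04 (U937) and -0.09 (HL-60), beside medians of 0.01, 0.00 and 0.00 over all genes tested. TFIIH had medians of -0.10 and 0.10 over its 10 subunits in MOLM-13 and U937 and of -0.24 over the 8 tested in HL-60. The 12 Pol II subunits had medians of -0.18, 0.43 and -0.04 in the same order. In U937, 10 of the 12 Pol II subunits had a log2 fold change above 0, where 50.3% of all genes did, and the exceptions were POLR2G and POLR2H. These counts and medians describe the classes and were given no test. The median of TFIIH in U937 changed sign when a library was left out, running from -0.24 to 0.25, and that of Pol II stayed between 0.20 and 0.60.

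**Figure D2:**
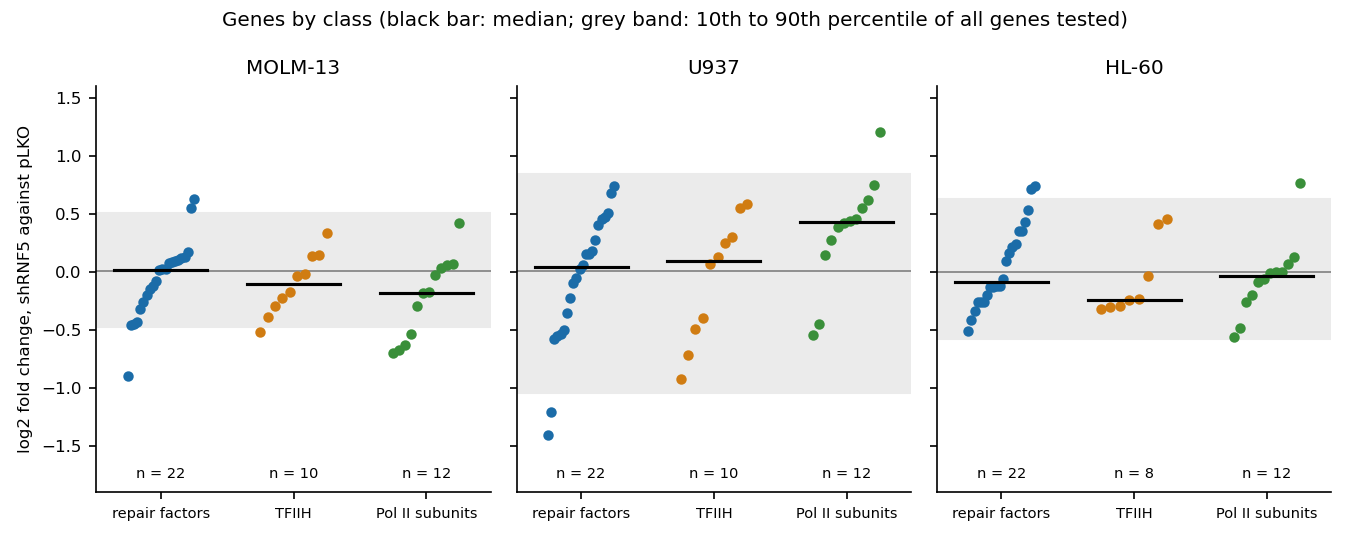
Log2 fold change of each gene by class, with the class median as a black bar and the span from the 10th to the 90th percentile of all genes tested as a grey band. The Pol II median stands at 0.43 in U937, inside a band from -1.05 to 0.85, and at -0.18 and -0.04 in MOLM-13 and HL-60.

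Recognition of damage across the genome rests on XPC, which binds the distorted helix with RAD23B and CETN2, and on the ubiquitin ligase made of DDB1, DDB2, RBX1 and either CUL4A or CUL4B. Of these 8 genes, CUL4B and DDB1 were called, both in HL-60 and in opposite directions. CUL4B, the scaffold on the X chromosome (GRCh37 chrX:119639775-119737929, minus strand), read 1304, 1341 and 1700 with pLKO and 2059, 2116 and 2079 with shRNF5. Its shRNF5 libraries all lay above, a rise of 0.54 (SE 0.13, limma adjusted p = 0.0177). DDB1, the adaptor that holds the damage sensor on the ligase (chr11:61066923-61110068, minus strand), fell from 6886, 6594 and 7182 to 5667, 4725 and 5142, by 0.42 on the log2 scale (SE 0.12, limma adjusted p = 0.0344). The DDB1 groups did not overlap, but the value sat near the fold limit: without either pLKO library 1 or 3, or without shRNF5 library 2, it was between -0.41 and -0.35 with adjusted p between 0.0838 and 0.133.

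In U937 the same ligase genes were not called. DDB1 read 3352 and 3411 with pLKO and 5452 and 4059 with shRNF5 there (log2 fold change 0.48, SE 0.25, limma adjusted p = 0.241), all higher with shRNF5, and CUL4B read 3206 and 2801 against 2821 and 2771 (-0.10, adjusted p = 0.812), with overlap. In MOLM-13, the values with pLKO and shRNF5 overlapped for both, with log2 fold changes of 0.17 for DDB1 and 0.02 for CUL4B. The response of DDB1 was higher in U937 than in HL-60 by 0.89 (SE 0.22, limma adjusted p = 0.00826), and that of CUL4B was lower by 0.64 (-0.64, SE 0.22, limma adjusted p = 0.0431). RBX1, the RING subunit that recruits the ubiquitin-loaded enzyme, was below the pLKO libraries in all 3 HL-60 shRNF5 libraries at a log2 fold change of -0.34 (limma adjusted p = 0.0824), short of the fold limit. CUL4A and DDB2, the other scaffold and the damage-binding subunit, stayed between -0.58 and 0.13 over the 3 lines, with no call.

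XPC and RAD23B had log2 fold changes of opposite sign in U937, neither called. XPC (chr3:14186647-14220121, minus strand) read 1235 and 1066 with pLKO and 744 and 821 with shRNF5, and RAD23B, which stabilises XPC, read 3271 and 3497 against 4479 and 4443. Neither overlapped, and the log2 fold changes were -0.55 (SE 0.25, limma adjusted p = 0.186) for XPC and 0.40 (SE 0.23, limma adjusted p = 0.289) for RAD23B. In HL-60, XPC read 387, 420 and 412 with pLKO and 419, 533 and 419 with shRNF5 (0.16, adjusted p = 0.463), and RAD23B read 5812, 5683 and 5478 against 4710, 4752 and 4690 (-0.26, adjusted p = 0.111). The RAD23B groups were apart in HL-60 as well, in the other direction. U937 minus HL-60 came to -0.71 for XPC (SE 0.23, limma adjusted p = 0.0307) and 0.66 for RAD23B (SE 0.19, limma adjusted p = 0.0193). Both also differed between MOLM-13 and U937, by 0.68 (adjusted p = 0.0906) and -0.60 (adjusted p = 0.0763), the MOLM-13 values being 0.12 for XPC and -0.20 for RAD23B. CETN2, the small calcium-binding partner of XPC, overlapped between the groups in all 3 lines.

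UVSSA was called among the transcription-coupled factors, in U937. The protein, which helps ERCC6 and ERCC8 bring TFIIH to a stalled polymerase, is encoded at chr4:1339479-1389777 on the plus strand. In U937 its normalized read count was 1266 and 1038 with pLKO and 480 and 511 with shRNF5, a fall of 1.21 on the log2 scale (-1.21, SE 0.26, limma adjusted p = 0.0302). Both shRNF5 libraries thus lay under 1038, the lower pLKO value. In MOLM-13 it read 526, 303 and 354 against 416 and 364 (log2 fold change 0.02), and in HL-60 308, 188 and 208 against 232, 196 and 175 (-0.20), with overlap in both. The response in U937 was lower than in HL-60 by 1.01 (-1.01, SE 0.35, limma adjusted p = 0.0436) and lower than in MOLM-13 (MOLM-13 minus U937 1.23, SE 0.37, limma adjusted p = 0.0540).

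ERCC6, the ATPase that first meets the stalled polymerase, had the highest log2 fold change of the repair factors in MOLM-13. It read 657, 628 and 827 with pLKO and 1037 and 1123 with shRNF5, with no overlap, at 0.63 (SE 0.17, limma adjusted p = 0.155). In U937 and HL-60 its log2 fold changes were -0.05 and -0.12. ERCC8, the substrate receptor of the same step, overlapped between groups in every line. XAB2, a splicing protein that binds XPA, lay lower in every shRNF5 library than in every pLKO library in each of the 3 lines, at -0.12, -0.50 and -0.26, and passed the threshold in none (limma adjusted p = 0.663, 0.278 and 0.192).

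Among the genes that verify and cut the lesion, XPA and RPA3 rose in HL-60 with clear gaps. XPA, the protein that checks the opened strand (chr9:100437191-100459622, minus strand), read 143, 142 and 151 with pLKO and 216, 230 and 272 with shRNF5 in HL-60 (log2 fold change 0.71, SE 0.17, limma adjusted p = 0.0160). RPA3, the smallest subunit of the single-strand binding protein RPA (chr7:7676149-7758238, minus strand), read 758, 756 and 818 against 1201, 1122 and 1614 (0.74, SE 0.15, limma adjusted p = 0.00865). Every shRNF5 library was above every pLKO library for both genes. Both were called again without any single library of HL-60, at 0.61 to 0.78 for XPA and 0.58 to 0.84 for RPA3.

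In the other lines the same genes pointed down without a call. RPA3 read 1081, 1213 and 810 with pLKO and 638 and 472 with shRNF5 in MOLM-13, the lowest log2 fold change of the repair factors there (-0.89, SE 0.22, limma adjusted p = 0.123), and 982 and 1424 against 949 and 699 in U937 (-0.54, adjusted p = 0.253). Its groups did not overlap in either line. XPA read 591, 396 and 328 against 309 and 311 in MOLM-13 (-0.45, adjusted p = 0.398) and 366 and 428 against 345 and 277 in U937 (-0.36, adjusted p = 0.473), again with the shRNF5 libraries lowest. HL-60 therefore differed from both. MOLM-13 minus HL-60 was -1.63 for RPA3 (SE 0.30, limma adjusted p = 0.0149) and -1.16 for XPA (SE 0.31, limma adjusted p = 0.0499), and U937 minus HL-60 was -1.28 for RPA3 (SE 0.32, limma adjusted p = 0.00951) and -1.07 for XPA (SE 0.32, limma adjusted p = 0.0239). UMAD1 lies across RPA3 on the opposite strand. The strand setting of the authors' counting is not given in the sources used here, so reads of the genes cannot be told apart. The same limit holds for ERCC1, LIG3 and POLR2E, crossed on the opposite strand by POLR1G, RFFL and ARHGAP45, and for XPC, crossed by a gene without a symbol. It also holds for ERCC2, POLR2B, POLR2C, POLR2I and POLR2J, crossed on the opposite strand by KLC3, IGFBP7, DOK4, OVOL3 and LRWD1.

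The larger RPA subunits were not called in any line. RPA1, which makes most of the contact with DNA, read 2459 and 2904 with pLKO and 3832 and 3494 with shRNF5 in U937 (log2 fold change 0.45, SE 0.24, limma adjusted p = 0.243), and RPA2 read 1218 and 1337 against 2305 and 1812 (0.68, SE 0.25, limma adjusted p = 0.111). Neither overlapped, neither passed, and RPA3 stood at -0.54 in the same libraries. In HL-60 RPA1 read 1665, 1779 and 1628 against 1618, 1823 and 1430 and RPA2 1576, 1451 and 1659 against 1654, 1120 and 1587, with overlap in both and log2 fold changes of -0.06 and -0.12. Differences between U937 and HL-60 were called for all 3 subunits, at 0.52 for RPA1 (limma adjusted p = 0.0745), 0.80 for RPA2 (adjusted p = 0.0349) and -1.28 for RPA3. RPA1 also differed between MOLM-13 and U937 (-0.72, limma adjusted p = 0.0575), the MOLM-13 value being -0.26. RPA2 was at 0.075 in MOLM-13, with overlap.

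ERCC5, the nuclease that cuts on the 3′ side of the lesion, had the largest fall of the 44 genes in U937. It lies at chr13:103498181-103528345 on the plus strand and read 1052 and 1187 with pLKO and 333 and 532 with shRNF5 (-1.41, SE 0.30, limma adjusted p = 0.0283). HL-60 showed the other order, with 884, 1002 and 881 against 1101, 1162 and 1276 and no overlap, at 0.36 (SE 0.12, limma adjusted p = 0.0640), short of the fold limit. In MOLM-13 the values were 1702, 1118 and 1176 against 948 and 965 (-0.45, adjusted p = 0.307), also without overlap. U937 minus HL-60 was -1.76 (SE 0.29, limma adjusted p = 0.00116), the most negative difference of the 42 genes, and MOLM-13 minus U937 was 0.96 (adjusted p = 0.0653). Of all stretches of 75 bases, the read length, in the ERCC5 transcript, 91.5% are also in the read-through gene BIVM-ERCC5, which makes the ERCC5 values uncertain as to which of these transcripts they count. ERCC1, the partner of ERCC4 in the cut on the 5′ side, read 974, 1285 and 1066 against 1159, 1424 and 1680 in HL-60 (0.35, adjusted p = 0.145) and 1455 and 1310 against 1117 and 1247 in U937 (-0.23, adjusted p = 0.575), and the difference between these lines was called (-0.58, limma adjusted p = 0.0947). In MOLM-13 ERCC1 was at -0.32, apart and not called. ERCC4 itself ran from -0.13 to 0.18 over the lines, with no call.

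Of the enzymes that fill and seal the gap, LIG3, the ligase that works with XRCC1, fell in HL-60. It lies at chr17:33307531-33336762 on the plus strand, with RFFL across it on the other strand, and read 1442, 1310 and 1314 with pLKO and 1069, 876 and 911 with shRNF5 (-0.51, SE 0.12, limma adjusted p = 0.0181). The groups did not overlap. In U937 every shRNF5 library was higher, at 862 and 642 against 521 and 527 (0.51, SE 0.28, limma adjusted p = 0.265), and in MOLM-13 the groups overlapped (0.10). The U937 response was above that of HL-60 by 1.02 (SE 0.24, limma adjusted p = 0.00746). After a correction for transcript length the HL-60 value of LIG3 was -0.33, under the fold limit, with an adjusted p of 0.0515. XRCC1, the scaffold protein of that ligase, and the gap-filling polymerase POLK had no call in any line. POLK stood at 0.55 in MOLM-13 (limma adjusted p = 0.265) and XRCC1 at 0.43 in HL-60 (adjusted p = 0.158).

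**Figure D3:**
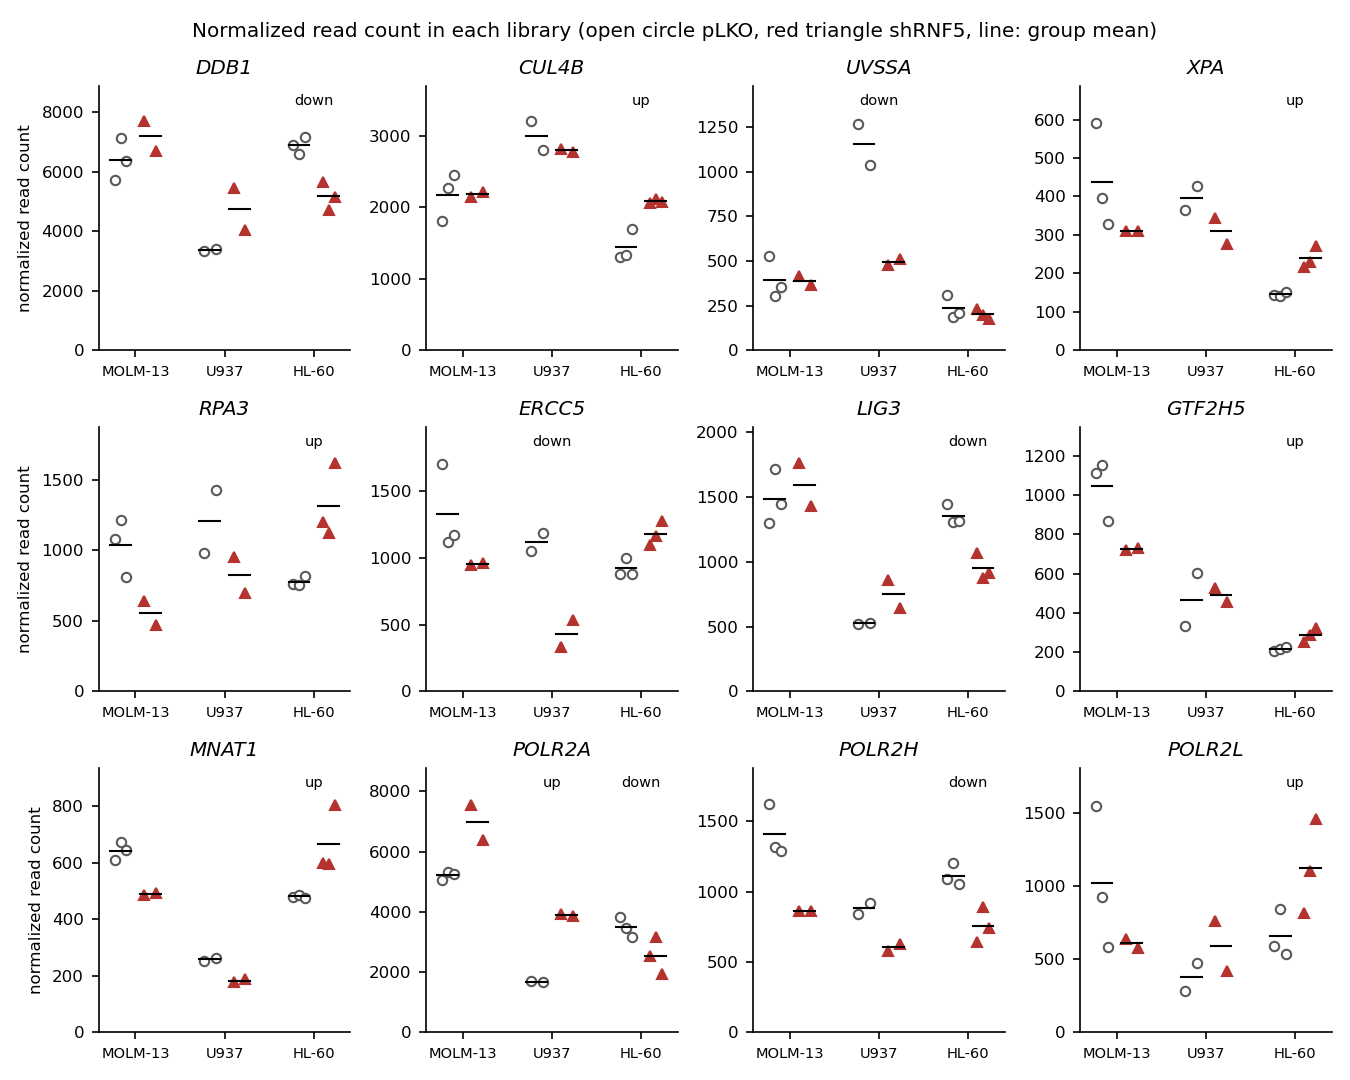
Normalized read count of each library (vertical axis from 0, each line scaled separately by the authors) for the 12 genes called in at least 1 line, with pLKO as open circles, shRNF5 as red triangles, group means as bars and the call written above the line it was made in. The groups overlap in HL-60 for POLR2A (shRNF5 up to 3169, pLKO down to 3158) and POLR2L, and are apart for the other called genes.

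TFIIH consists of a core with the helicases ERCC2 and ERCC3, the structural subunits GTF2H1 to GTF2H5, and the CDK-activating kinase made of CDK7, CCNH and MNAT1. The called genes were its smallest core subunit and the assembly factor of its kinase, both in HL-60. GTF2H5 (chr6:158589382-158620376, plus strand) read 204, 218 and 224 with pLKO and 253, 286 and 325 with shRNF5 and rose by 0.41 (SE 0.16, limma adjusted p = 0.0914), just past both limits. MNAT1 (chr14:61201460-61436683, plus strand) read 479, 486 and 476 against 597, 594 and 803 and rose by 0.45 (SE 0.15, limma adjusted p = 0.0544). Neither overlapped. The MNAT1 call rested in part on shRNF5 library 3, without which it was 0.31, and was also lost without pLKO library 1 or 3. For GTF2H5, leaving out any library but shRNF5 library 1 ended the call, at adjusted p from 0.137 to 0.257.

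In the remaining lines MNAT1 and GTF2H5 had lower or similar values with shRNF5. MNAT1 read 608, 672 and 646 against 484 and 494 in MOLM-13 (-0.39, limma adjusted p = 0.267) and 253 and 264 against 178 and 188 in U937 (-0.50, adjusted p = 0.347), apart in both lines. GTF2H5 read 1111, 1156 and 868 against 719 and 729 in MOLM-13, also apart (-0.52, adjusted p = 0.212), and 332 and 605 against 525 and 456 in U937, with overlap (0.13). The MNAT1 response was lower than in HL-60 in both, by 0.84 for MOLM-13 (-0.84, adjusted p of 0.0507) and by 0.95 for U937 (-0.95, SE 0.24, limma adjusted p = 0.00936). For GTF2H5, MOLM-13 minus HL-60 was -0.93 (limma adjusted p = 0.0907).

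The other kinase subunits were not called. CDK7, the kinase itself, was lower in every shRNF5 library than in every pLKO library in all 3 lines. It read 995, 1054 and 1104 against 852 and 858 in MOLM-13, 815 and 665 against 441 and 456 in U937, and 651, 694 and 650 against 489, 642 and 559 in HL-60. None of these passed the threshold, with log2 fold changes of -0.30, -0.71 and -0.25 and limma adjusted p of 0.341, 0.125 and 0.228. CCNH, its cyclin, was apart in HL-60 alone (-0.23, adjusted p = 0.197).

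In the TFIIH core, U937 and HL-60 differed for ERCC3, GTF2H1 and GTF2H3, in each case with the higher response in U937. ERCC3, the translocase that opens DNA, averaged 970.5 ± 47.4 (SD, n = 2) with pLKO in U937, under the 1151 of both shRNF5 libraries, and read 780, 838 and 783 against 647, 712 and 568 in HL-60, apart in both. Its log2 fold changes were 0.25 and -0.32, neither called, and the difference was 0.57 (SE 0.19, limma adjusted p = 0.0396). GTF2H1 read 1181 and 1182 against 1842 and 1700 in U937 (0.58, limma adjusted p = 0.145), apart, and 1284, 1229 and 1244 against 1288, 1169 and 1221 in HL-60 (-0.03), with overlap, and the difference was 0.61 (SE 0.17, limma adjusted p = 0.0170). GTF2H3 overlapped in both lines, at 831 and 1238 against 1289 and 1213 in U937 and 2009, 1533 and 2091 against 1631, 1368 and 1534 in HL-60, with a difference of 0.61 (SE 0.25, limma adjusted p = 0.0855). In MOLM-13 the log2 fold changes of ERCC3, GTF2H1 and GTF2H3 were 0.135, 0.144 and -0.23, all apart and not called. ERCC2, the other helicase, was below 0 in all 3 lines (-0.17, -0.40 and -0.30) and called in none. GTF2H2 and GTF2H4 had low values throughout, at most 177 and 37, and shared 89.3% and 93.4% of their 75-base stretches with copies or overlapping genes, so their values are uncertain.

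The promoters of these TFIIH genes are shown because 4 of the 10 TFIIH promoters hold the ETS core motif CCGGAAG on either strand within 250 bases before the start, whereas 8.82% of the 27305 promoters in the RefSeq table do. Of the 38 member genes found there, 9 hold it, among them 3 of 20 repair factors and 2 of 8 Pol II subunits, and the motif does not overlap another motif searched in the stretches printed. The stretch with the match nearest the start is given 5′ to 3′ on the strand of the gene, from RefSeq on GRCh38.p14, with every copy of the motif, or of CTTCCGG where it lies on the other strand, in capitals. The last line shows POLR2A, described next, whose promoter holds the GC box GGGCGG, in capitals, present in 42.3% of all promoters and in 26 of 38 member promoters. The CCAAT box, the third motif searched, was in 11 of 38 member promoters and 33.0% of all. A match is a description of letters and not a binding site.
ERCC3 (chr2:127294145-127294174, minus strand): gagCTTCCGGattgagCCGGAAGtcccccc
GTF2H1 (chr11:18322537-18322566, plus strand): ccgccttgctaCTTCCGGtcacgtgccctc
GTF2H2 (chr5:71067712-71067741, minus strand): cggcggaatgaCTTCCGGggcgcccctaaa
GTF2H3 (chr12:123633690-123633719, plus strand): tccgtacccctCTTCCGGcgcactccccgc
POLR2A (chr17:7484302-7484331, plus strand): cgggaaaggaagGGGCGGggacgcgagggc

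Of the TFIIH genes with the ETS core, ERCC3, GTF2H1 and GTF2H3 were the core genes with a called difference between U937 and HL-60, and GTF2H2 was not tested in HL-60. UVSSA and CUL4B also hold the motif, and their responses were lower in U937 than in HL-60. XAB2, POLR2C and POLR2F hold it too, without a called difference between these lines (limma adjusted p = 0.502, 0.499 and 0.123). The letters therefore stood before genes with called differences of both signs and before genes without a called difference.

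POLR2A, the largest and catalytic subunit of Pol II, whose tail TFIIH phosphorylates, had the largest positive difference between U937 and HL-60. It is encoded at chr17:7387685-7417933 on the plus strand. In U937 it read 1711 and 1666 with pLKO and 3940 and 3851 with shRNF5, with a wide gap between the groups, and rose by 1.21 (SE 0.23, limma adjusted p = 0.0213). In HL-60 it read 3845, 3475 and 3158 with pLKO and 2520, 3169 and 1937 with shRNF5, and fell by 0.48 on the log2 scale (-0.48, SE 0.17, limma adjusted p = 0.0700), with shRNF5 library 2 just above the lowest pLKO library. In MOLM-13 it read 5065, 5314 and 5241 against 7539 and 6396, also apart and higher with shRNF5, the highest value of the Pol II subunits there (0.42, SE 0.13, limma adjusted p = 0.194). U937 minus HL-60 was 1.69 (SE 0.24, limma adjusted p = 0.000600), the largest of the 42 genes in size after ERCC5. MOLM-13 minus HL-60 was 0.90 (limma adjusted p = 0.0451) and MOLM-13 minus U937 was -0.79 (adjusted p = 0.0692), so a difference was called for each pair of lines. These contrasts share libraries, and only U937 minus HL-60 was called again without any single library. With a library left out, MOLM-13 minus HL-60 ran from 0.72 to 1.07 and MOLM-13 minus U937 from -0.91 to -0.67. The HL-60 call held without 1 of the 6 libraries, shRNF5 library 2, and was otherwise lost at adjusted p from 0.106 to 0.220.

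The 3 calls in U937 shared a limit. Without pLKO library 2, shRNF5 library 1 or shRNF5 library 3, UVSSA, ERCC5 and POLR2A all lost their calls, at adjusted p from 0.198 to 0.585, 0.134 to 0.594 and 0.178 to 0.538. Over all 4 such fits the log2 fold changes kept their sign and stayed between -1.35 and -1.07, between -1.74 and -1.07 and between 1.19 and 1.23.

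The other subunits particular to Pol II were not called in any line. POLR2D, which pairs with POLR2G in the stalk of the enzyme, read 819 and 679 with pLKO and 1473 and 1068 with shRNF5 in U937 (0.75, SE 0.27, limma adjusted p = 0.109), apart, and 1062, 991 and 1064 against 1137, 908 and 1086 in HL-60 (0.00), with overlap. POLR2G pointed the other way in U937, at 706 and 821 against 529 and 588 (-0.45, adjusted p = 0.300), and read 689, 777 and 731 against 706, 812 and 894 in HL-60 (0.13). U937 minus HL-60 was thus 0.75 for POLR2D (limma adjusted p = 0.0502) and -0.58 for POLR2G (limma adjusted p = 0.0689), opposite signs within the stalk. The POLR2D value in MOLM-13 was 0.06, with overlap. POLR2G also differed between MOLM-13 and HL-60 (-0.67, limma adjusted p = 0.0905), after 1138, 1142 and 950 against 794 and 686 in MOLM-13. Both differences of POLR2G were lost after a correction for transcript length (adjusted p = 0.277 against HL-60 for U937 and 0.315 for MOLM-13). POLR2B, the next largest subunit, was higher in both U937 shRNF5 libraries (0.55, limma adjusted p = 0.197) and near 0 elsewhere. POLR2C and POLR2J, which help assemble the enzyme, and POLR2I lay between -0.67 and 0.44 with no call. POLR2J shared 28.7% of its 75-base stretches with other genes, among them POLR2J3 and POLR2J2.

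Among the subunits that Pol II shares with Pol I and Pol III, POLR2H and POLR2L were called, both in HL-60. POLR2H (chr3:184079498-184086384, plus strand) read 1086, 1202 and 1051 with pLKO and 639, 893 and 743 with shRNF5 and fell by 0.56 on the log2 scale (-0.56, SE 0.15, limma adjusted p = 0.0224). It was also the lowest Pol II subunit in the other lines. In MOLM-13 it read 1624, 1313 and 1291 against 865 and 859 (-0.70, SE 0.16, limma adjusted p = 0.107), and in U937 840 and 920 against 579 and 627 (-0.54, SE 0.26, limma adjusted p = 0.20). The groups were apart in all 3 lines, and no difference between lines was called for it (adjusted p = 0.715, 0.759 and 0.960). The HL-60 call held without any single library, at -0.69 to -0.45.

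POLR2L (chr11:837356-842529, minus strand), one of the smallest subunits, read 591, 847 and 537 with pLKO and 820, 1102 and 1460 with shRNF5 in HL-60 and rose by 0.76 (SE 0.22, limma adjusted p = 0.0350), although the lowest shRNF5 library lay under the highest pLKO library. The call was lost without pLKO library 3 or shRNF5 library 3 (0.63 and 0.56, adjusted p = 0.140 and 0.129). Its pLKO values also spread widely in MOLM-13, at 1552, 927 and 582 against 641 and 578 with shRNF5 (-0.63), and in U937, at 284 and 474 against 763 and 417 (0.62), with overlap. POLR2E, which contacts the downstream DNA, read 997 and 1639 against 1651 and 1857 in U937 (0.45) and 2069, 2470 and 1893 against 1853, 1840 and 1883 in HL-60 (-0.20). The groups were apart in both lines, in opposite directions, and the difference was called (0.65, limma adjusted p = 0.0672). In MOLM-13 POLR2E was at -0.18, also apart and not called. POLR2F and POLR2K, the remaining shared subunits, ran from -0.29 to 0.42 with no call.

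CDK7, XAB2 and POLR2H were the 3 of 42 genes whose shRNF5 libraries lay below all pLKO libraries in each of the 3 lines, where 1.42% of the 11072 genes above 0 in all lines did so. None of the 42 lay above in all of them, where 2.09% of genes did. Within single lines the groups were apart for 20 of 44 genes (MOLM-13), 30 of 44 (U937) and 17 of 42 (HL-60), beside 38.7%, 59.2% and 38.5% of all genes tested.

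The difference of the response between lines was tested for the 42 genes above 0 in every line. It was called at an adjusted p under 0.1, with no fold limit, for 20 of 42 genes between U937 and HL-60 (37.2% of all genes tested), for 6 between MOLM-13 and U937 (15.4%) and for 6 between MOLM-13 and HL-60 (8.82%). The contrasts share libraries and are not independent of each other. Between U937 and HL-60, 11 genes had the higher response in U937 and 9 in HL-60. The log2 fold changes of 18 of the 20 had opposite signs in the 2 lines, the exceptions being UVSSA and POLR2D. Picking genes by a called difference favours opposite signs, and the share among all called genes was not counted. Some of the signs rest on HL-60 values near 0, such as -0.03 for GTF2H1, -0.06 for RPA1 and 0.00 for POLR2D. By class, 12 of 22 repair factors, 4 of 8 TFIIH subunits and 4 of 12 Pol II subunits were called. Of these 20 differences, 9 were called again without any single library: RAD23B, DDB1, XPA, RPA3, ERCC5, LIG3, GTF2H1, MNAT1 and POLR2A. Between MOLM-13 and U937, none of the 6 was, since leaving out any of 5 libraries removed them all, and between MOLM-13 and HL-60 RPA3 was.

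**Figure D4:**
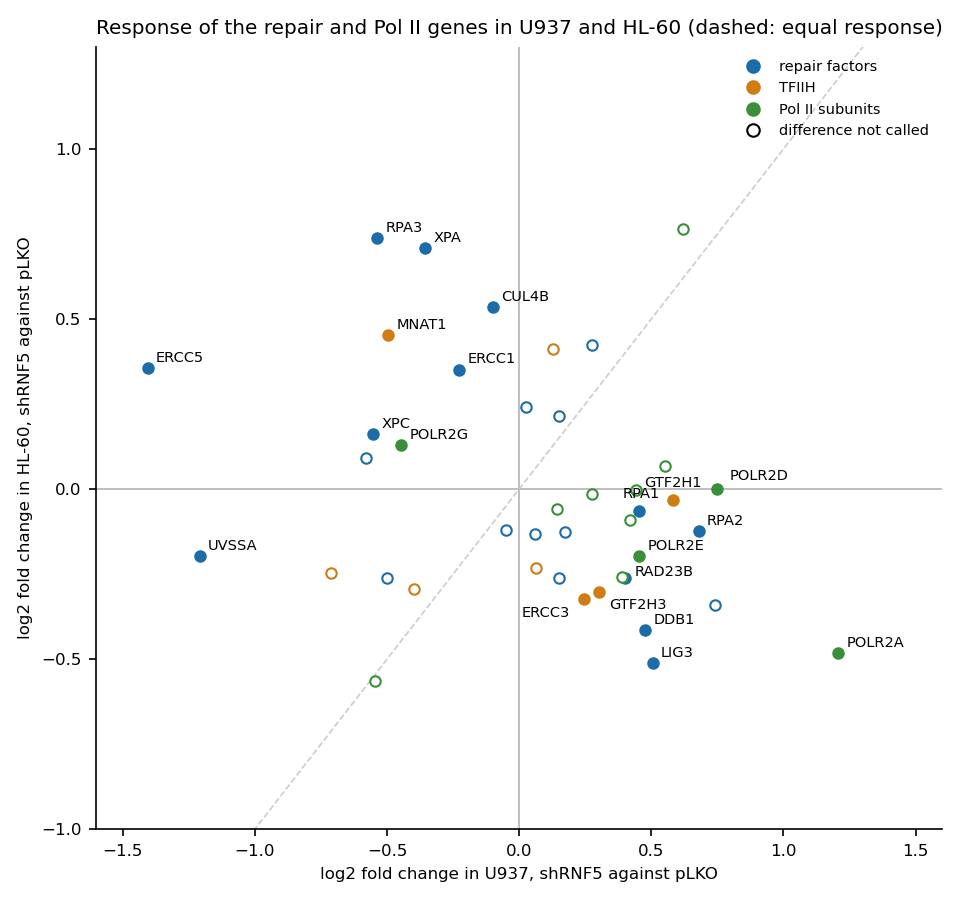
Log2 fold change of shRNF5 over pLKO in U937 (horizontal axis) and HL-60 (vertical axis) for the 42 genes tested in both, with a dashed line where the responses would be equal and filled, named points for the 20 genes with a called difference. POLR2A lies farthest to the lower right, at 1.21 and -0.48, and ERCC5 farthest to the left, at -1.41 and 0.36.

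Transcript length moved with the response over the whole data set, in different directions in the lines. Over all genes tested with a transcript length, Spearman's rho between the log2 fold change and the length of the canonical transcript was 0.28 (MOLM-13), 0.16 (U937) and -0.22 (HL-60), a description across genes, which share libraries and are no replicates. Over the member genes it was 0.48 (44 genes, MOLM-13), 0.04 (44 genes, U937) and -0.17 (42 genes, HL-60). For the 12 Pol II subunits, from POLR2I at 443 to POLR2A at 6304 bases, it was 0.67, 0.57 and -0.41. Of the long transcripts, POLR2A was the highest Pol II subunit in MOLM-13 and U937 and among the lowest in HL-60, and the short POLR2L was the highest in HL-60. The part of length in the POLR2A response was tested only by a correction: with each library corrected for transcript length, POLR2A was 1.11 in U937 (limma adjusted p = 0.0303) and -0.36 in HL-60 (adjusted p = 0.103), so the rise in U937 was called again and the fall in HL-60 was not. CUL4B, XPA, RPA3, GTF2H5, POLR2H and POLR2L kept their calls in HL-60, UVSSA and ERCC5 theirs in U937, and DDB1 (-0.38), LIG3 (-0.33) and MNAT1 (0.38) dropped under the fold limit.

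**Figure D5:**
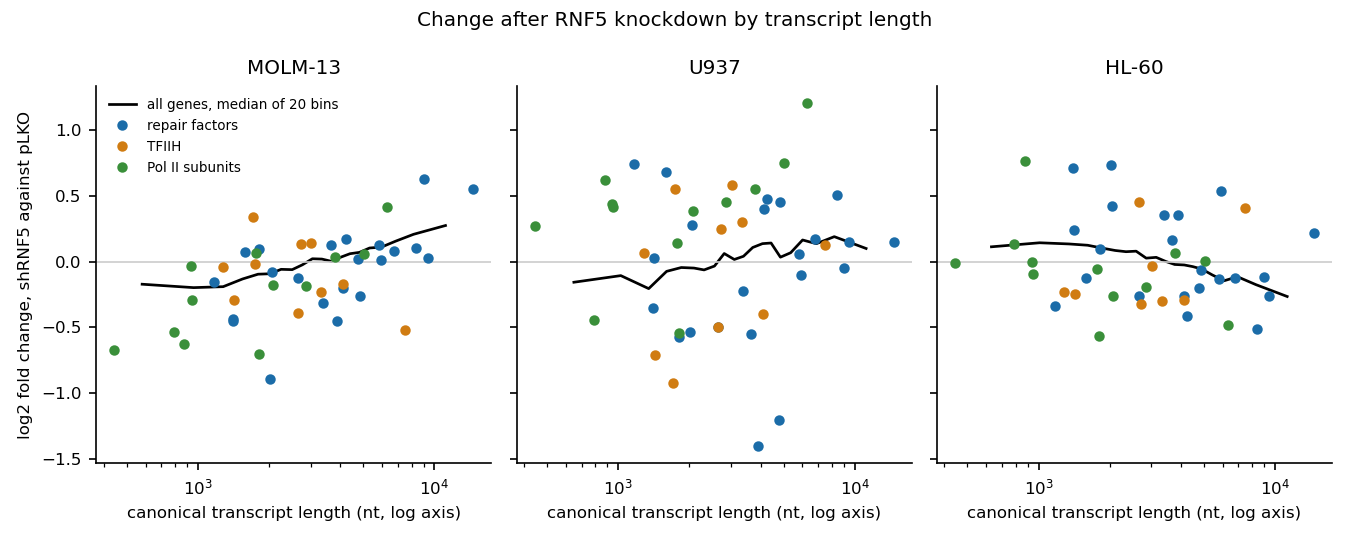
Log2 fold change of shRNF5 over pLKO against the length of the canonical transcript (log axis, nucleotides) for the members in each line, with the median of all genes in 20 bins of length as a black line. The line rises with length in MOLM-13, where rho over all genes is 0.28, and falls in HL-60, where it is -0.22.

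Other genes of these processes, listed by function with earlier results of these data known, were counted in the same way. Of all genes tested, 2.04% (MOLM-13), 15.7% (U937) and 25.9% (HL-60) were called either way. The shares called up and down were 6.92% and 8.74% for U937 and 13.6% and 12.3% for HL-60. For MOLM-13, 17% of all genes had an unadjusted p under 0.05 and 50.8% a log2 fold change above 0. Whether the lists differ from these shares was not tested. Of 19 further NER factors, 0 were called in MOLM-13 (5 at an unadjusted p under 0.05), 3 rose in U937, and 2 rose and 2 fell in HL-60, with medians of -0.15, 0.07 and -0.06. Of 32 further initiation and elongation factors of Pol II, 0 were called in MOLM-13 (3 at an unadjusted p under 0.05), 2 rose in U937, and 1 rose and 1 fell in HL-60. Of 16 genes of gap filling and DNA replication, 0 were called in MOLM-13 (6 at an unadjusted p under 0.05), where all 16 had a log2 fold change below 0, 1 rose and 1 fell in U937, and 2 rose in HL-60.

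The subunits of Pol I and Pol III, which share POLR2E, POLR2F, POLR2H, POLR2K and POLR2L with Pol II, were called in both directions. Of 19 such subunits, 6 rose and 0 fell in U937 (median 0.43), beside 6.92% and 8.74% of all genes. In HL-60, 1 rose and 7 fell (median -0.26), beside 13.6% and 12.3% of all genes. In MOLM-13, 0 were called (median -0.12), with 4 at an unadjusted p under 0.05 beside 17% of all genes. The unadjusted count was 10 in U937 and 11 in HL-60, beside 27.1% and 35% of all genes. Whether these differences between lines pass a test was not tested for the list.

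Among 24 genes of S phase and mitosis, 3 rose in U937, 1 rose in HL-60 and 0 were called in MOLM-13. The shares of all genes called either way were 15.7%, 25.9% and 2.04%. An unadjusted p under 0.05 was seen for 12 (U937), 7 (HL-60) and 8 (MOLM-13), beside 27.1%, 35% and 17% of all genes. A log2 fold change above 0 was found for 22 of the 24 in U937 (median 0.58), 11 in HL-60 (median -0.03) and 2 in MOLM-13 (median -0.36), and neither the list nor its difference between lines was tested. Of 10 myeloid markers tested, 5 rose and 1 fell in HL-60, 1 rose and 1 fell in U937 and 0 were called in MOLM-13 (1 at an unadjusted p under 0.05). All 8 genes of mitochondrial RNA fell in HL-60, where their summed value ran from 4180 to 5681 with pLKO and from 973 to 2345 with shRNF5, whereas all 8 had a log2 fold change above 0 in the other lines. In U937, 2 of the 8 rose (median 1.56), and the sum ran from 1092 to 1955 with pLKO and from 2011 to 5450 with shRNF5. In MOLM-13, 0 were called (2 at an unadjusted p under 0.05, median 0.61), and the sum ran from 2553 to 5571 and from 5798 to 6113. The part of proliferation, differentiation and mitochondrial RNA in the responses of the repair and Pol II genes was not tested.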

How the data were processed

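The 15 RNA-seq libraries came from 3 AML lines and were grouped by line and construct as labelled. The authors aligned reads to hg19, counted them per gene with featureCounts of the Subread package and normalized them in each line with edgeR. The deposited values are a score in unit terms: normalized read counts that the authors rounded to whole numbers, and 0 stands for genes under the authors' limit on low counts. Count tests were therefore not run. Each file holds 60566 lines and 57820 gene IDs, and no 2 libraries held the same values.

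limma 3.58.1 in R 4.3.3 was fitted to log2(value + 1) with a mean-variance trend, in each line over every gene above 0 in any of its libraries, and for differences between lines in a fit over all 15 libraries and the 11072 genes above 0 in each line. Calls required a Benjamini-Hochberg adjusted p under 0.1 and, within a line, a log2 fold change beyond 0.4. The script was tested on simulated data with known changes. Intervals for counting error are left out, as no counts were analysed. The depth of a library was inferred from the gaps between its rounded values with Python 3.11.15, pandas 2.3.3 and numpy 2.4.6.

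Genes called in a line or with a called difference between lines, and RNF5, are given with library values. In some lines only a group mean or the log2 fold change is given for them. The rest are given by counts, ranges and the extremes of each class. Of the other lists, only genes called the same way in at least 2 lines are described singly. The members and lists were chosen with earlier results of these data known. Coordinates and canonical transcript lengths are from GENCODE on GRCh37, the build of hg19, with a transcript for at least 96.8% of the genes tested in each line and all 44 members. Promoters came from RefSeq on GRCh38.p14, matched by symbol for 38 of 44 members. Alternatives were other pseudocounts (0.5 and 10), a mean value of at least 50, median-of-ratios rescaling, no trend, a fit over all libraries, an adjusted p under 0.05, a loess correction for transcript length (span 0.5), a replicate block and leaving out each library. The length correction of the differences between lines was added after the data had been seen.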

Additional observations from a re-analysis of the deposited data

Results flagged for a closer look

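The genes below are listed because the response to the knockdown differed between cell lines by a test of the difference itself. The test was limma's contrast of the log2 fold changes, at an adjusted p under 0.1 over 11072 genes. Between U937 and HL-60, 20 of 42 genes were called, beside 37.2% of all genes tested. It was 6 of 42 between MOLM-13 and U937 (15.4% of all genes) and 6 of 42 between MOLM-13 and HL-60 (8.82%). Values are differences of log2 fold changes, the first line minus the second. The contrasts share libraries.

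Between U937 and HL-60, 11 responses were higher in U937. POLR2A, the catalytic Pol II subunit, differed by 1.69, LIG3 by 1.02, DDB1 by 0.89, RPA2 by 0.80, POLR2D by 0.75, RAD23B by 0.66, POLR2E by 0.65, GTF2H1 by 0.61, GTF2H3 by 0.61 (0.605), ERCC3 by 0.57 and RPA1 by 0.52. The 9 that were lower in U937 were ERCC5 at -1.76, RPA3 at -1.28 (-1.275), XPA at -1.07 (-1.065), UVSSA at -1.01, MNAT1 at -0.95, XPC at -0.71, CUL4B at -0.64 (-0.635), ERCC1 at -0.58 and POLR2G at -0.58. Those of POLR2A and ERCC5 were the farthest from 0 in each direction.

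Between MOLM-13 and U937, UVSSA differed by 1.23, ERCC5 by 0.96 (0.955) and XPC by 0.68, higher in MOLM-13, and POLR2A by -0.79, RPA1 by -0.72 and RAD23B by -0.60, lower in MOLM-13. Each of these 6 was lost without 1 or another single library.

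Between MOLM-13 and HL-60, POLR2A was higher in MOLM-13 by 0.90, and RPA3 (-1.63), XPA (-1.16), GTF2H5 (-0.93), MNAT1 (-0.84) and POLR2G (-0.67) were lower. RPA3 was called again without any single library.

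MOLM-13 against HL-60 and U937 against HL-60 pointed the same way for POLR2A, RPA3, XPA, MNAT1 and POLR2G, with the HL-60 libraries in both contrasts.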

How the results depend on the processing

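No call turned its direction under any alternative run. Within lines, pseudocounts of 0.5 and 10, median-of-ratios rescaling and an adjusted p under 0.05 moved no count of calls by more than 1.5 times. In MOLM-13, where 0 genes were called, 1 fell after the correction for transcript length (POLR2H), 2 in a fit over all 15 libraries (RPA3, POLR2H) and 4 with the replicate number as a block. In U937, where 1 gene rose and 2 fell, 2 rose with a mean of at least 50 or the length correction, none was called without the mean-variance trend (0 and 0; adjusted p for UVSSA, ERCC5 and POLR2A 0.109, 0.115 and 0.102), and 9 rose and 8 fell in the fit over all libraries. In HL-60, 2 genes fell instead of 4 after the length correction. Of the original 4, POLR2H kept its call and DDB1, LIG3 and POLR2A did not, so the count includes a gene not called before. POLR2L and GTF2H5 lost their calls in the fit over all libraries (limma adjusted p 0.130 and 0.183). POLR2A lost its call without the trend (0.140), and GTF2H5 with a pseudocount of 10 (log2 fold change 0.397). At an adjusted p under 0.05, GTF2H5, MNAT1 and POLR2A were not called. The shares of all genes called under the alternatives, the fit over all libraries and leaving out a library included, were not counted. Whether the members differ from all genes in these counts was not tested.

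Class medians moved by more than the spread between libraries as follows. For TFIIH in MOLM-13 the median was -0.17 with a mean of at least 50, -0.035 after the length correction, -0.275 with the replicate block and -0.20 in the fit over all libraries. That of the repair factors was -0.069 there after the length correction. TFIIH in U937 moved to 0.13 with a mean of at least 50 and 0.12 after the length correction. In HL-60 the length correction gave 0.005 for repair factors, -0.29 for TFIIH and -0.17 for Pol II.

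Leaving out each library in turn gave 0 to 1 genes called down in MOLM-13, 0 to 4 up and 0 to 4 down in U937, and 3 to 8 up and 2 to 4 down in HL-60. Medians ran from -0.086 to 0.009 for repair factors and -0.275 to 0.032 for TFIIH in MOLM-13, from -0.11 to 0.10, -0.24 to 0.25 and 0.20 to 0.60 for repair factors, TFIIH and Pol II in U937, and from -0.12 to 0.011 and -0.24 to -0.20 for repair factors and TFIIH in HL-60. Called differences ran from 0 to 15 between MOLM-13 and U937, from 1 to 10 between MOLM-13 and HL-60 and from 9 to 24 between U937 and HL-60, whose lowest count came without U937 shRNF5 library 1. Without U937 pLKO library 3, both the count of 15 and the U937 counts of 4 were reached. Where 1 library remained in a group, it was assumed to vary like the others.

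Whether the replicate numbers pair the libraries was not settled. For libraries with the same number, Pearson's r of deviations over genes ran from -0.53 to -0.17 in MOLM-13 and from -0.11 to 0.51 in HL-60. For different numbers it ran from -0.28 to 0.53 and from -0.60 to 0.40. Deviations were taken from the group mean, so the 2 MOLM-13 shRNF5 libraries mirror each other and cannot decide it. In HL-60 the ranges overlap. The replicate block kept the counts of calls in HL-60 within 1.5 times. No paired analysis was possible for U937 because its groups share 1 number. With the length correction, 8, 7 and 23 differences were called between MOLM-13 and U937, MOLM-13 and HL-60, and U937 and HL-60. Genes with low values, GTF2H2 and GTF2H4 above all, are limited most by depth.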

Other observations

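RRM2, the subunit of ribonucleotide reductase that limits the supply of DNA precursors, was the gene of the S phase and mitosis list called in the same direction in 2 lines. Its mean normalized read count went from 4013.5 with pLKO to 17650.5 with shRNF5 in U937, a rise of 2.20 on the log2 scale (limma adjusted p = 0.0144), and from 4853.7 to 7485.3 in HL-60 (0.62, limma adjusted p = 0.0124). FCER1G, the signalling chain of Fc receptors and a myeloid marker, was the gene of the marker lists called in the same direction in 2 lines. Its mean went from 1258.5 to 2341.5 in U937 (0.905, limma adjusted p = 0.0737) and from 337.3 to 761 in HL-60, a rise of 1.16 (limma adjusted p = 0.00654), whereas MOLM-13 had 89 and 74 with no call.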
